A study of Mus musculus with 15 samples.

Results

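Voltage-gated calcium channels admit calcium into neurons when the membrane is depolarised, and each channel has 1 pore-forming alpha1 subunit. The 8 pore subunit genes described here are Cacna1c and Cacna1d, which form L-type channels, Cacna1a, Cacna1b and Cacna1e, which form the P/Q-, N- and R-type channels, and Cacna1g, Cacna1h and Cacna1i, which form the T-type channels. They were chosen by name, as the genes to which 17 array probes resolved through the accession of each probe, and they are 8 of the 22864 genes tested. Of the 17 probes, 16 passed the filter on dim probes, and every one of the 8 genes had at least 1 probe that passed.

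The arrays held RNA of the whole hippocampus, both hemispheres together, of male C57BL/6 mice at about 2.5 months of age. The control group, dflox (4 arrays), carries floxed alleles of both the glucocorticoid receptor (GR, gene Nr3c1) and the mineralocorticoid receptor (MR, gene Nr3c2) and no Cre. GREmx1-cre (4 arrays) lacks GR, MREmx1-cre (4 arrays) lacks MR and GRMREmx1-cre (3 arrays) lacks both, each through Emx1-Cre, which is a Cre that acts in the lineage of forebrain excitatory neurons and part of the glia. Interneurons, microglia, vessels and other cells in the same tissue are not of that lineage and are mixed into every value. Per the study's design, the floxed allele was that of GR in GREmx1-cre and that of MR in MREmx1-cre, so that neither single knockout carries the other floxed allele that dflox carries, and no group holds Cre without a floxed allele. The labels do not say whether each array is 1 mouse, so p-values measure only the spread between these samples, which may be technical.

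L-type channels open at strong depolarisation and lie mostly on cell bodies and dendrites, where their calcium also reaches the nucleus and feeds the slow afterhyperpolarisation. P/Q-, N- and R-type channels supply much of the calcium that triggers transmitter release, and T-type channels open near the resting potential and support burst firing. Corticosteroids are known to control the calcium current of CA1 neurons through GR and MR, both of which are transcription factors that bind palindromic response elements in DNA. The comparisons below ask how the messenger RNA of each pore subunit differs when 1 or both receptors are lost.

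Because both receptors bind DNA, the 250 bases upstream of the annotated starts were read from the RefSeq table of assembly GRCm38.p6, which held 8 such windows for 5 of the 8 genes (Cacna1b, Cacna1c, Cacna1d, Cacna1e and Cacna1i). Each window was searched for the full element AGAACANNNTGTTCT and for either arm of it alone (TGTTCT, or AGAACA on the other strand), so that a full element would also count as holding both arms. None of the 8 windows held the full element, which 3 of all 32851 windows of that length (0.00913%) did. An arm alone was present in 2 of the 8, and in 16.1% of all windows. The 3 windows below are shown because Cacna1d is the L-type gene that passed the test, with 1 start whose window holds the arm and 1 whose window does not, and because the Cacna1c window is the other one that holds it. All 3 windows are on the minus strand and are written 5′ to 3′ in the direction of transcription, with the arm in capitals.

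Cacna1d, chr14:30491157-30491406: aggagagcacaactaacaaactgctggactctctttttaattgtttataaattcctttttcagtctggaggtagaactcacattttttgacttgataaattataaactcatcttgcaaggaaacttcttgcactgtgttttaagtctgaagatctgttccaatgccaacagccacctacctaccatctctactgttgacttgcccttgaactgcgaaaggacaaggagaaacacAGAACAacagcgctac
Cacna1d, chr14:30353487-30353736: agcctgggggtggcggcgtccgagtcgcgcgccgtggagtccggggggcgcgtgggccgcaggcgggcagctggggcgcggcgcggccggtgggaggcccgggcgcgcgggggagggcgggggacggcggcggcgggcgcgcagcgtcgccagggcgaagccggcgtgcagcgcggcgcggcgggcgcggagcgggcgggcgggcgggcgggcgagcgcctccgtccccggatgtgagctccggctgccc
Cacna1c, chr6:118757975-118758224: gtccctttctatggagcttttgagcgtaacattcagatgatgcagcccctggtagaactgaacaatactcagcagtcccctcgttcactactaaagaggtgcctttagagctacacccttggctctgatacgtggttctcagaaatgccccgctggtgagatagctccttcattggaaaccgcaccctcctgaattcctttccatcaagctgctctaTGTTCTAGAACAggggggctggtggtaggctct

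The first Cacna1d window holds 1 arm close to the start, and the second, a GC-rich window, holds none. In the Cacna1c window both arms stand next to each other, in the reverse order of the full element and with no gap between them. A match in these windows is a description of the letters and not a binding site, and a window without a match says nothing about sites elsewhere.

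The arrays compared as follows. The 75th percentile of the processed intensity, to which all levels below are relative, was 821 to 1027 units, and 28083 to 30206 of 41174 probes were well above background. Each of the 4 slides held a single genotype, and a slide effect cannot be told apart from a genotype effect. Nr3c1 levels (log2 relative to that percentile) were 1.49 to 1.79 in dflox, -0.66 to -0.53 in GREmx1-cre, 2.08 to 2.28 in MREmx1-cre and -0.08 to 0.09 in GRMREmx1-cre, so GREmx1-cre stood at 21.2% and GRMREmx1-cre at 32.1% of dflox. Nr3c2 was dim, at -3.65 to -3.36 in dflox, -3.15 to -3.04 in GREmx1-cre, -3.76 to -3.46 in MREmx1-cre and -4.01 to -3.71 in GRMREmx1-cre. The difference of MREmx1-cre from dflox, -0.11 ± 0.0859 (SE, n = 4 and 4; limma adjusted p = 0.48), therefore does not check the label of that group, and whether the probe lies in the deleted part is not known. All 6 markers of hippocampal pyramidal and granule neurons were well above background on every array. In each group at least 1 array stood apart for markers of neighbouring tissue. For thalamic and habenular markers, dflox replicate 3 had the highest summed level of all arrays (14.2 against 8.48 to 8.76 in the rest of its group). GREmx1-cre replicate 1 was at 10.3 against 6.93 to 7.9, and MREmx1-cre replicate 1 at 10.4 against 7.26 to 7.99. GRMREmx1-cre replicate 3 was at 10.2 against 7.51 to 7.64. MREmx1-cre replicate 2 was low for choroid plexus markers (summed level 1.37 against 31.5 to 59). In whole tissue, fewer cells of a type and less RNA per cell cannot be told apart.

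At most 2 of the 8 pore subunit genes passed the test in any 1 comparison, and those that did changed by less than 2-fold. Cacna1a, Cacna1d, Cacna1g and Cacna1h each passed in at least 1 comparison. Against dflox, none of the 8 genes passed in GREmx1-cre (background 3.15% of all genes tested, limma with Benjamini-Hochberg adjustment at 0.05; 2 of 8 at an unadjusted p below 0.05). In MREmx1-cre, Cacna1g rose and Cacna1d fell (2 of 8; background 6.81%, of which 4.21% higher and 2.6% lower). In GRMREmx1-cre, Cacna1h fell (1 of 8; background 16.3%, of which 11.4% higher and 4.84% lower). The share of rises among all calls was 71.8%, 61.8% and 70.2% in these 3 comparisons, and 56.1%, 50.9% and 47.3% with arrays scaled to their median; all calls of the 8 genes were the same under both scalings.

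Between the knockouts, Cacna1g was higher and Cacna1h lower in GRMREmx1-cre than in GREmx1-cre (2 of 8; background 16.1%, of which 9.23% higher and 6.91% lower). Cacna1g was higher and Cacna1a lower in MREmx1-cre than in GREmx1-cre (2 of 8; background 9.33%, of which 4.92% higher and 4.42% lower). None of the 8 genes passed between GRMREmx1-cre and MREmx1-cre (background 2.98%; 3 of 8 at an unadjusted p below 0.05 in limma). The interaction asks whether the difference that goes with MR loss is another one without GR than with GR, and none of the 8 passed for it (background 1.29%; 2 of 8 at an unadjusted p below 0.05 in limma). The median log2 difference of the 8 genes from dflox was -0.10 in GREmx1-cre, -0.07 in MREmx1-cre and 0.00 in GRMREmx1-cre, beside 0.02, 0.04 and 0.03 over all genes tested. With normexp background correction, the calls of Cacna1d and Cacna1g in MREmx1-cre against dflox (-0.22, adjusted p = 1, and 0.30, adjusted p = 0.635), of Cacna1a in MREmx1-cre against GREmx1-cre (-0.34, adjusted p = 0.863) and of Cacna1g in GRMREmx1-cre against GREmx1-cre (0.30, adjusted p = 0.0516) were lost. In these 3 comparisons normexp called 0.459%, 0.757% and 61.6% of all genes, beside 6.81%, 9.33% and 16.1% in the main fit. With the compared groups alone in the fit, Cacna1g in MREmx1-cre (0.34, adjusted p = 0.0727) and Cacna1h in GRMREmx1-cre (-0.40, adjusted p = 0.0614) did not pass against dflox. These comparisons share arrays, the 3 with dflox its 4 arrays, so their values are set side by side without a test of their likeness.

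**Figure D1:**
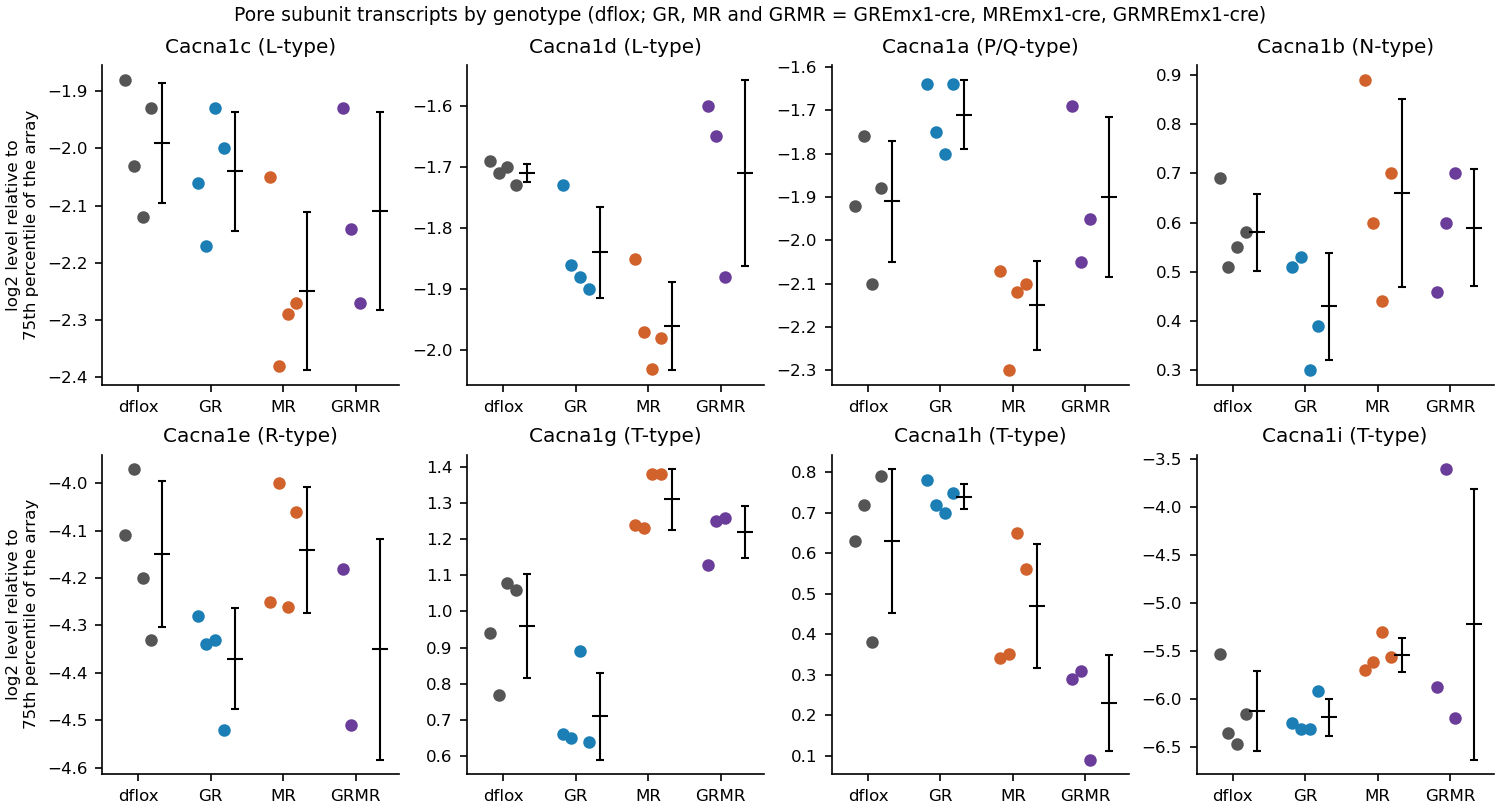
Level of each pore subunit gene on each array at its brightest probe (log2 of the processed intensity relative to the array's 75th percentile), in 8 panels, with 1 point per array and a line and bar for the group mean ± SD. Cacna1g lies highest in MREmx1-cre (1.23 to 1.38) and GRMREmx1-cre (1.13 to 1.26), and Cacna1h lies lowest in GRMREmx1-cre (0.09 to 0.31).

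Of the L-type pair, Cacna1d, which encodes Cav1.3, a channel that opens at less depolarised potentials than Cav1.2, was lower in MREmx1-cre. Its log2 levels were -1.69, -1.71, -1.70 and -1.73 in dflox, -1.85, -1.97, -2.03 and -1.98 in MREmx1-cre, -1.73, -1.86, -1.88 and -1.90 in GREmx1-cre, and -1.60, -1.65 and -1.88 in GRMREmx1-cre. The 4 dflox arrays lay very close together, every MREmx1-cre array lay below them, and the GRMREmx1-cre arrays lay on both sides. Cacna1d fell to 84.1% of dflox in MREmx1-cre (log2 difference -0.25 ± 0.0633, SE, n = 4 and 4; limma adjusted p = 0.0342; 95% interval -0.39 to -0.11).

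In GREmx1-cre the Cacna1d difference from dflox was -0.13 ± 0.0633 (adjusted p = 0.273), and in GRMREmx1-cre it was 0.00 ± 0.0684, with an interval of -0.15 to 0.15. GRMREmx1-cre and MREmx1-cre differed by 0.25 ± 0.0684 (adjusted p = 0.0767), and the interaction was 0.38 ± 0.0932 (adjusted p = 0.0674), so neither passed. Both passed without GRMREmx1-cre replicate 3, at 0.33 (adjusted p = 0.0205) and 0.47 (adjusted p = 0.0257), and the interaction also passed without MREmx1-cre replicate 1 (0.42, adjusted p = 0.0482). Without the same array Cacna1d also passed in GRMREmx1-cre against GREmx1-cre (0.22, adjusted p = 0.0419).

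The Cacna1d call in MREmx1-cre was lost without any 1 of the 4 dflox arrays or without MREmx1-cre replicate 2, 3 or 4, with differences of -0.28 to -0.23 and adjusted p of 0.0133 to 0.0915 over the 15 arrays left out in turn. It was also lost with the mean of the gene's probes (-0.23, adjusted p = 0.164) and with GREmx1-cre replicate 1 and MREmx1-cre replicate 2 both left out (-0.25, adjusted p = 0.0693).

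Cacna1c, which encodes Cav1.2, the main L-type pore of the hippocampus, did not pass in any comparison. Its levels were -1.88, -2.03, -2.12 and -1.93 in dflox and -2.05, -2.38, -2.29 and -2.27 in MREmx1-cre. The 2 groups overlapped through 1 MREmx1-cre array. The difference was -0.25 ± 0.0899 (limma adjusted p = 0.116), with an interval of -0.45 to -0.06. A second probe of Cacna1c gave -0.27 for the same comparison, without passing. In GREmx1-cre the difference from dflox was -0.05 (interval -0.24 to 0.15), and in GRMREmx1-cre it was -0.12 (interval -0.33 to 0.09), where the levels were -1.93, -2.14 and -2.27.

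Among the pores of presynaptic channels, Cacna1a, which encodes the P/Q-type pore Cav2.1, differed between the single knockouts. Its levels were -1.64, -1.75, -1.80 and -1.64 in GREmx1-cre and -2.07, -2.30, -2.12 and -2.10 in MREmx1-cre, with -1.92, -1.76, -2.10 and -1.88 in dflox and -1.69, -2.05 and -1.95 in GRMREmx1-cre. Every MREmx1-cre array lay below every GREmx1-cre array, and the dflox arrays lay between and partly within both. Cacna1a was at 73.8% of its GREmx1-cre level in MREmx1-cre (-0.44 ± 0.0889, SE, n = 4 and 4; limma adjusted p = 0.00901; interval -0.63 to -0.25).

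Against dflox, Cacna1a differed by 0.21 ± 0.0889 in GREmx1-cre (adjusted p = 0.227), by -0.23 ± 0.0889 in MREmx1-cre (adjusted p = 0.144) and by 0.02 ± 0.096 in GRMREmx1-cre (interval -0.19 to 0.22), so it passed in none of the 3. The call between the single knockouts held without any 1 of the 15 arrays (-0.47 to -0.39). It did not hold with GREmx1-cre replicate 1 and MREmx1-cre replicate 2 both left out (-0.37, adjusted p = 0.0679), and the second probe of the gene gave -0.30 (unadjusted p = 0.0724).

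Cacna1a is the member that lies on the chromosome of a deleted receptor gene. In the gene order of GRCm38.p6 it is on chromosome 8, as is Nr3c2, with 53 tested genes between them. Of those 53 genes, 22.6% passed between MREmx1-cre and GREmx1-cre, beside 9.33% of all genes. The shares were 18.9% for GREmx1-cre against dflox (all genes 3.15%) and 26.4% for GRMREmx1-cre against GREmx1-cre (all genes 16.1%). They were 7.55% for MREmx1-cre and 11.3% for GRMREmx1-cre against dflox (all genes 6.81% and 16.3%). A difference between the floxed and unfloxed chromosome near Nr3c2 and a difference that goes with receptor loss cannot be told apart in the comparisons with GREmx1-cre, the group without a floxed Nr3c2 allele. The other 7 members lie on chromosomes 1, 2, 6, 11, 14, 15 and 17, none of which carries Nr3c1 or Nr3c2.

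Cacna1b, the N-type pore Cav2.2, which works beside P/Q-type channels at release sites, passed in no comparison. The dflox arrays had Cacna1b levels of 0.51 to 0.69, the GREmx1-cre arrays 0.30 to 0.53, the MREmx1-cre arrays 0.44 to 0.89 and the GRMREmx1-cre arrays 0.46 to 0.70, and all knockouts overlapped with dflox. The differences from dflox were -0.15 (interval -0.35 to 0.05), 0.08 (interval -0.12 to 0.27) and 0.01 (interval -0.21 to 0.22) in GREmx1-cre, MREmx1-cre and GRMREmx1-cre.

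Cacna1e, the R-type pore Cav2.3, was dimmer against its array's percentile and also passed in no comparison. It lay between -4.33 and -3.97 in dflox, -4.52 and -4.28 in GREmx1-cre, and -4.26 and -4.00 in MREmx1-cre. GRMREmx1-cre gave only 2 values, -4.18 and -4.51, because the spot of replicate 1 had an outlier flag and was dropped. The differences from dflox were -0.22 ± 0.1 in GREmx1-cre (adjusted p = 0.27), 0.01 in MREmx1-cre (interval -0.21 to 0.23) and -0.20 ± 0.123 in GRMREmx1-cre (n = 2; interval -0.46 to 0.07).

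Among the 3 T-type genes, Cacna1g passed in MREmx1-cre and Cacna1h in GRMREmx1-cre against dflox, the first higher and the second lower. Cacna1g, which encodes Cav3.1, the T-type pore best known for thalamic burst firing and also present in hippocampal neurons, had log2 levels of 0.94, 0.77, 1.08 and 1.06 in dflox. The levels were 0.66, 0.65, 0.89 and 0.64 in GREmx1-cre, 1.24, 1.23, 1.38 and 1.38 in MREmx1-cre, and 1.13, 1.25 and 1.26 in GRMREmx1-cre. All arrays without MR lay above all dflox arrays, and the GREmx1-cre arrays lay below dflox except for replicate 3.

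Cacna1g rose 1.27-fold in MREmx1-cre over dflox (log2 difference 0.34 ± 0.0792, SE, n = 4 and 4; limma adjusted p = 0.0214; interval 0.17 to 0.52). In GRMREmx1-cre the difference was 0.25 ± 0.0856 (n = 3 and 4; adjusted p = 0.0614; interval 0.07 to 0.44), and in GREmx1-cre it was -0.25 ± 0.0792 (adjusted p = 0.108; interval -0.42 to -0.08). MREmx1-cre was 1.51-fold above GREmx1-cre (0.60 ± 0.0792; adjusted p = 0.000669), and GRMREmx1-cre was 1.42-fold above GREmx1-cre (0.51 ± 0.0856; adjusted p = 0.002). The 2 groups without MR differed by -0.09, and the interaction was 0.16 (interval -0.09 to 0.41). Against GREmx1-cre a second Cacna1g probe gave 0.20 in MREmx1-cre (limma adjusted p over all probes = 0.0855), without passing. It gave 0.35 in GRMREmx1-cre (adjusted p = 0.00732).

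The Cacna1g call in MREmx1-cre was lost without dflox replicate 1 (0.34, adjusted p = 0.0552), dflox replicate 2 (0.28, adjusted p = 0.0512), MREmx1-cre replicate 3 (0.32, adjusted p = 0.0602) or MREmx1-cre replicate 4 (0.32, adjusted p = 0.0625). The Cacna1g difference in GRMREmx1-cre passed without dflox replicate 3 (0.29, adjusted p = 0.046) or GREmx1-cre replicate 3 (0.25, adjusted p = 0.0435), and with the mean of both probes (0.31, adjusted p = 0.0113). The thalamus and habenula are tissue next to the hippocampus in which Cacna1g is abundant. Of 11 tested markers of them, none passed in GREmx1-cre (background 3.15%, with 3 at an unadjusted p below 0.05 in limma). In MREmx1-cre 2 rose and in GRMREmx1-cre 3 rose, beside 4.21% and 11.4% of all genes, and none of the 11 fell. Their median log2 differences from dflox were -0.03, -0.09 and 0.06. Their summed levels were 8.48 to 14.2 in dflox, 6.93 to 10.3 in GREmx1-cre, 7.26 to 10.4 in MREmx1-cre and 7.51 to 10.2 in GRMREmx1-cre, and the part of that tissue in the Cacna1g differences was not tested.

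Cacna1h, which encodes Cav3.2, a T-type pore of dentate granule cells and pyramidal cell dendrites, moved the other way. Its levels were 0.63, 0.72, 0.38 and 0.79 in dflox, 0.78, 0.72, 0.70 and 0.75 in GREmx1-cre, 0.34, 0.35, 0.65 and 0.56 in MREmx1-cre, and 0.29, 0.31 and 0.09 in GRMREmx1-cre. The 3 GRMREmx1-cre arrays were the lowest of all 15, while the MREmx1-cre arrays overlapped with dflox. Cacna1h fell to 75.7% of dflox in GRMREmx1-cre (-0.40 ± 0.101, SE, n = 3 and 4; limma adjusted p = 0.0167; interval -0.62 to -0.18).

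Compared with GREmx1-cre, Cacna1h in GRMREmx1-cre was at 70.3% (-0.51 ± 0.101; adjusted p = 0.00495; interval -0.73 to -0.29), and this held without any 1 of the 15 arrays (-0.55 to -0.44) but not with the mean of the gene's 3 probes (-0.33, adjusted p = 0.0526). The Cacna1h differences from dflox were 0.11 in GREmx1-cre (interval -0.09 to 0.31) and -0.16 in MREmx1-cre (interval -0.36 to 0.05), and the interaction was -0.35 ± 0.137 (adjusted p = 0.213). The call against dflox was lost without GRMREmx1-cre replicate 3 (-0.33, adjusted p = 0.0755) and with that mean (-0.19, adjusted p = 0.262). Of 7 dentate granule cell markers, 1 rose and 4 fell in GRMREmx1-cre, beside 11.4% higher and 4.84% lower of all genes. The log2 differences of the 7 ran from -3.02 to 1.23 (median -0.35). Their summed level was 15.4 to 23 in dflox and 15.9 to 22.9 in GRMREmx1-cre. Their mean log2 deviation from each marker's mean over all arrays did not overlap, at 0.01 to 0.46 in dflox and -0.61 to -0.24 in GRMREmx1-cre. Of 6 pyramidal and granule cell markers, 3 fell there, with sums of 224 to 267 in dflox and 192 to 213 in GRMREmx1-cre, and the part of either list in the Cacna1h difference was not tested.

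Cacna1i, the T-type pore Cav3.3, was close to background and well above it on 11 of 15 arrays. Its levels were -5.53, -6.35, -6.47 and -6.15 in dflox, -6.25, -6.31, -6.31 and -5.91 in GREmx1-cre, -5.70, -5.61, -5.30 and -5.56 in MREmx1-cre, and -5.87, -3.60 and -6.20 in GRMREmx1-cre. GRMREmx1-cre replicate 2 stood far above every other array. The difference of GRMREmx1-cre from dflox was 0.90 ± 0.467 (interval -0.11 to 1.91) with it and 0.09 without it. MREmx1-cre differed from dflox by 0.58 (interval -0.35 to 1.52) and from GREmx1-cre by 0.65 ± 0.432, and every MREmx1-cre array lay above every GREmx1-cre array. In a fit on these 2 groups alone the latter difference passed (adjusted p = 0.0256), which leaves out the spread that replicate 2 of GRMREmx1-cre adds.

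**Figure D2:**
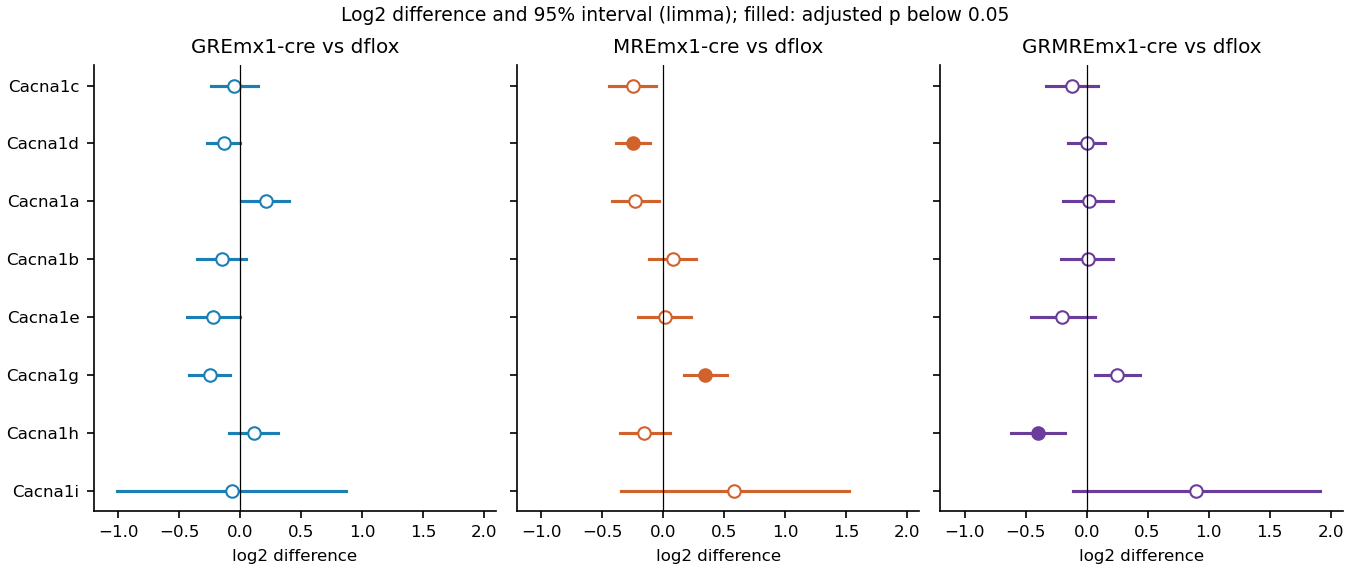
Log2 difference of each pore subunit gene from dflox in GREmx1-cre, MREmx1-cre and GRMREmx1-cre, at its brightest probe, with limma's 95% interval as bars and filled points for adjusted p below 0.05. Filled points are Cacna1d (-0.25) and Cacna1g (0.34) in MREmx1-cre and Cacna1h (-0.40) in GRMREmx1-cre, and the interval of Cacna1i (-0.11 to 1.91 in GRMREmx1-cre) is the widest.

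Each gene above is given by its brightest probe, and the other probes of a gene did not always give the same difference. In a separate fit of 30873 probes, 2 of the 16 tested member probes passed in MREmx1-cre against dflox (1 higher and 1 lower; background 6.03% of probes) and 2 in GRMREmx1-cre against dflox (1 higher and 1 lower; background 14.4%). In GREmx1-cre against dflox 0 of 16 passed (background 2.78%; 3 of 16 at an unadjusted p below 0.05 in limma). In GRMREmx1-cre against GREmx1-cre 2 probes were higher and 2 lower (background 15.2%), and in MREmx1-cre against GREmx1-cre 1 was higher and 3 lower (background 8.88%). The probe that was higher in GRMREmx1-cre was the second probe of Cacna1g, which read -1.75, -1.86, -1.66 and -1.69 in dflox and -1.37, -1.38 and -1.36 in GRMREmx1-cre. The groups did not overlap, and the difference was 0.37 ± 0.0727 (limma adjusted p over all probes = 0.00477). In MREmx1-cre the same probe differed from dflox by 0.22 ± 0.0673 (adjusted p = 0.0714), and in GREmx1-cre by 0.02. Both Cacna1g probes were thus higher in both groups without MR than in dflox, each with a test passed in 1 of them. The lower value of GREmx1-cre was seen with the brightest probe alone.

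The 3 Cacna1h probes differed from each other. The second read -3.47, -3.33, -3.46 and -3.23 in dflox and -3.66, -3.60 and -3.65 in GRMREmx1-cre, a difference of -0.26 (adjusted p = 0.0926) without overlap. Against GREmx1-cre it was lower in GRMREmx1-cre (-0.43 ± 0.098; adjusted p = 0.0116) and in MREmx1-cre (-0.36 ± 0.0907; adjusted p = 0.028). The third probe of Cacna1h gave 0.09 in GRMREmx1-cre against dflox and did not pass.

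Cacna1d had 3 tested probes, all lower in MREmx1-cre than in dflox, by -0.25, -0.15 and -0.29, of which the first passed. The dimmest of the 3 separated the single knockouts. It read -4.75, -5.22, -5.41 and -4.92 in GREmx1-cre and -5.85, -5.88, -5.74 and -5.45 in MREmx1-cre, without overlap, a difference of -0.66 ± 0.149 (adjusted p = 0.0164). For Cacna1a, the second probe gave -0.41 in GRMREmx1-cre against dflox, where the brightest gave 0.02, and neither passed. The second Cacna1e probe lay within 0.11 of dflox in all 3 knockouts. The files give no probe sequences, so which transcript each probe detects was not analysed here.

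**Figure D3:**
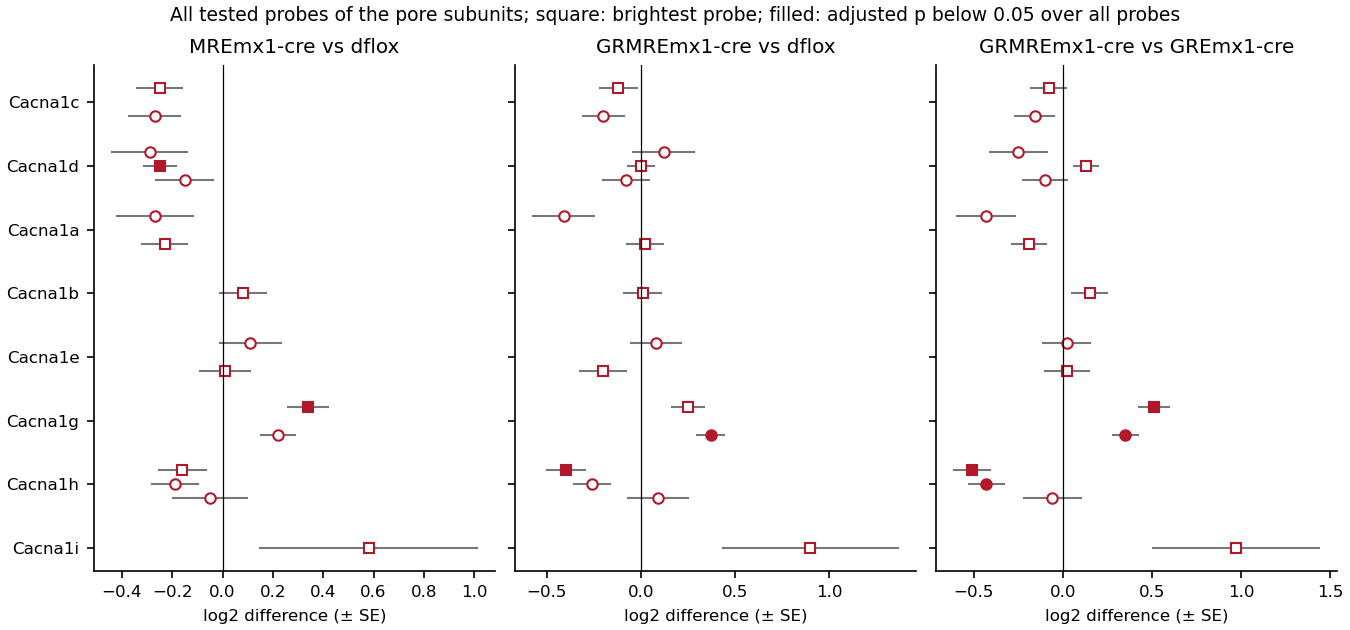
Log2 difference of each of the 16 tested probes of the 8 genes in MREmx1-cre against dflox, GRMREmx1-cre against dflox and GRMREmx1-cre against GREmx1-cre, with SE bars, squares for the brightest probe of a gene and filled symbols for an adjusted p below 0.05 over all probes. Both Cacna1g probes lie above 0 in all 3 panels, and of the 3 Cacna1h probes the third (0.09 in GRMREmx1-cre against dflox) lies apart from the others.

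For the 3 genes that passed against dflox, the genes with the most similar levels over the 15 arrays were sought among 15938 tested genes with a symbol. For Cacna1h they were Sertm1 (Pearson r = 0.964), Hagh (0.961) and Cpne6 (0.944), whose differences from dflox in GRMREmx1-cre were -0.48, -0.27 and -0.25. For Cacna1g they were Ap3s1 (0.932), Cdh4 (0.927) and Phf20l1 (0.92), with 0.14, 0.21 and 0.44 in MREmx1-cre. For Cacna1d they were Vps13b (0.835), Usf3 (0.826) and Mtx3 (0.802), with -0.09, -0.22 and -0.20 in MREmx1-cre. The 15 points share genotype and slide, so these correlations are descriptions of the arrays.

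The auxiliary subunit families included both higher and lower genes in the groups without MR. Beta and alpha2delta subunits carry the pore to the membrane and set its gating, while the gamma family also holds AMPA receptor regulators. Of 13 tested genes of the beta, alpha2delta and gamma families, 0 passed in GREmx1-cre (0 at an unadjusted p below 0.05 in limma), 2 rose and 2 fell in MREmx1-cre, and 2 rose and 3 fell in GRMREmx1-cre. Over all genes the called shares were 3.15%, 6.81% (4.21% higher and 2.6% lower) and 16.3% (11.4% higher and 4.84% lower). The median log2 differences of the 13 were -0.03, 0.10 and -0.04, beside 0.02, 0.04 and 0.03 over all genes. Cacng5, a gamma subunit that also acts on AMPA receptors, had levels of -1.17 to -0.77 in dflox, -2.75 to -1.46 in MREmx1-cre and -2.69 to -1.49 in GRMREmx1-cre. It fell to 41.2% of dflox in MREmx1-cre (-1.28 ± 0.274, limma adjusted p = 0.0153). That adjusted p was 0.051 without both GREmx1-cre replicate 1 and MREmx1-cre replicate 2. In GRMREmx1-cre it fell by 1.25 on the log2 scale (SE 0.296, adjusted p = 0.0122). This call was lost without GRMREmx1-cre replicate 1 or 2 (-1.01, adjusted p = 0.0598, and -1.14, adjusted p = 0.0578). With normexp neither Cacng5 difference passed (-1.06, adjusted p = 0.194, and -0.43, adjusted p = 0.227).

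Cacng3, another AMPA receptor regulator of the gamma family, ran from -0.51 to -0.16 in dflox and from 0.12 to 0.21 in MREmx1-cre, where it rose by 0.54 ± 0.0761 (limma adjusted p = 0.00144). It rose by 0.35 ± 0.0822 in GRMREmx1-cre (adjusted p = 0.0118), which was lost with median scaling (0.27, adjusted p = 0.0889) or without GRMREmx1-cre replicate 3 (0.29, adjusted p = 0.0578). Cacnb2, a beta subunit that brings L-type pores to the membrane, was at -1.33 to -1.08 in dflox, -1.86 to -1.43 in MREmx1-cre and -1.86 to -1.71 in GRMREmx1-cre. Its differences were -0.44 ± 0.102 (adjusted p = 0.0215) and -0.53 ± 0.11 (adjusted p = 0.00578). With normexp background correction the first did not pass (-0.33) and the second turned to 0.19. The first call was not kept when any of dflox replicates 1 and 4 and MREmx1-cre replicates 2 and 3 was left out (-0.43 to -0.38). A second Cacnb2 probe gave -0.20 and -0.03 and passed in neither group.

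Cacnb4, the beta subunit most often paired with P/Q-type pores, was at 2.04 to 2.20 in dflox and 2.43 to 2.51 in MREmx1-cre, and rose by 0.33 ± 0.0529 there (adjusted p = 0.00353). In GRMREmx1-cre it rose by 0.29 ± 0.0648 (adjusted p = 0.00951) over 2 arrays, 2.36 and 2.51, since 1 array's spot was dropped as an outlier. With normexp neither Cacnb4 difference passed (0.33, adjusted p = 0.556, and -0.16, adjusted p = 0.346). The GRMREmx1-cre call was also lost with median scaling (0.23, adjusted p = 0.112) and with the compared groups alone (0.29, adjusted p = 0.0643). The other 3 Cacnb4 probes gave 0.07, 0.12 and 0.16 in MREmx1-cre and 0.02, 0.06 and 0.06 in GRMREmx1-cre, and none of them passed. With the mean of all 4 probes Cacnb4 in MREmx1-cre was 0.17 (adjusted p = 0.418). In GRMREmx1-cre that mean gave -0.09 (adjusted p = 0.683), with replicate 1 averaged without the brightest probe. Cacna2d3, an alpha2delta subunit, fell by 0.22 on the log2 scale in GRMREmx1-cre (SE 0.0652; adjusted p = 0.036), which did not pass when dflox replicate 2 or 4 or any of the GRMREmx1-cre arrays was left out (-0.25 to -0.19).

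**Figure D4:**
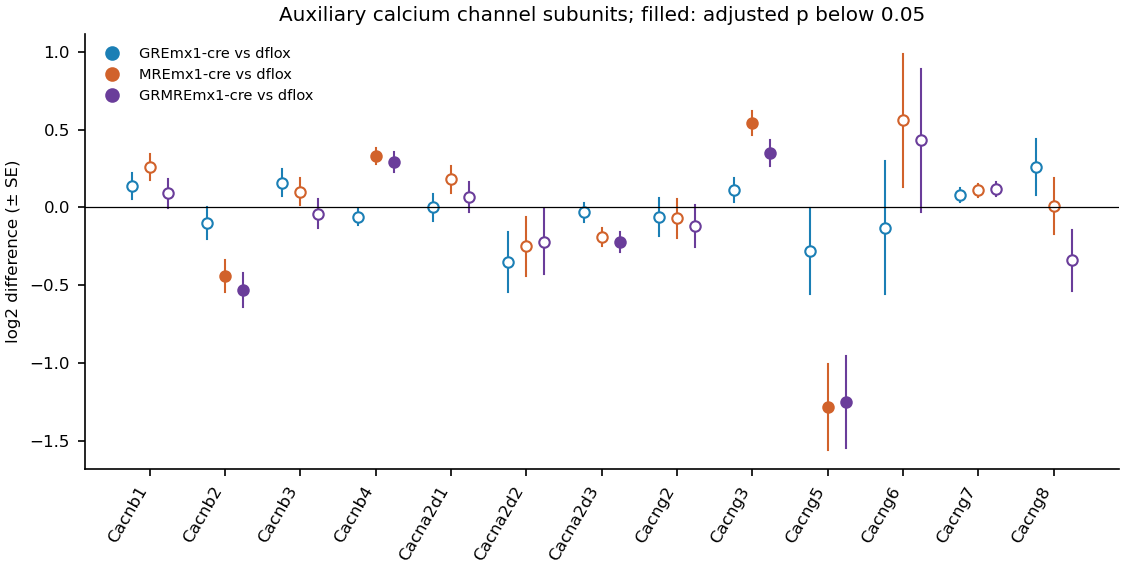
Log2 difference from dflox of the 13 tested auxiliary subunit genes (beta, alpha2delta and gamma families) in GREmx1-cre, MREmx1-cre and GRMREmx1-cre, with SE bars and filled points for adjusted p below 0.05. No point is filled in GREmx1-cre, while Cacng5 lies lowest in MREmx1-cre (-1.28) and GRMREmx1-cre (-1.25).

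The wider calcium machinery was read from 65 tested genes in all, auxiliary subunits and the muscle pore Cacna1s included, and more of them fell than rose once MR was lost. In GREmx1-cre 0 of 65 passed (10 at an unadjusted p below 0.05 in limma). In MREmx1-cre 3 rose and 12 fell, beside 4.21% higher and 2.6% lower of all genes. In GRMREmx1-cre 4 rose and 17 fell, beside 11.4% higher and 4.84% lower of all genes. The median log2 differences of the 65 were -0.06 and -0.11, beside 0.04 and 0.03 over all genes. Of 21 channel partners and regulators, 1 rose and 5 fell in MREmx1-cre and 1 rose and 6 fell in GRMREmx1-cre, beside 4.21% higher and 2.6% lower, and 11.4% higher and 4.84% lower, of all genes.

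Rem2, a small GTPase that inhibits high-voltage-activated channels through their beta subunit, had levels of -0.52 to -0.19 in dflox and -0.64 to -0.40 in GREmx1-cre. It lay at -1.40 to -1.25 in MREmx1-cre and -1.41 to -1.15 in GRMREmx1-cre, below all other arrays, and fell to 49.5% (-1.02 ± 0.0849; limma adjusted p = 5.08e-05) and 50.5% of dflox (-0.99 ± 0.0917; adjusted p = 5.83e-05). Stac, an adaptor that binds L-type channels, fell by 0.98 ± 0.147 on the log2 scale in MREmx1-cre (adjusted p = 0.00195), a call lost with normexp (-0.55). In GRMREmx1-cre its difference was -1.48 ± 0.159 (adjusted p = 0.000121), which turned to 0.58 with normexp background correction. Stx1a, the syntaxin of the release machinery that binds N- and P/Q-type channels, rose by 0.45 ± 0.0684 (adjusted p = 0.00224) and 0.50 ± 0.0739 (adjusted p = 0.000797) in the 2 groups, where it was at 1.84 to 2.06 and 2.01 to 2.06 beside 1.47 to 1.59 in dflox. With normexp neither Stx1a difference passed (0.43 and 0.19). Camk2b, a calcium-calmodulin kinase subunit that acts on these channels, fell by 0.43 ± 0.0957 (adjusted p = 0.0186, and 0.0525 without dflox replicate 4) and 0.59 ± 0.103 (adjusted p = 0.0023). With normexp the first Camk2b difference did not pass (-0.42, adjusted p = 0.459).

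Calb1, which encodes the buffer calbindin of dentate granule and CA1 cells, was the buffer gene that passed, of 3. Its levels were 3.12 to 3.66 in dflox, 3.45 to 3.55 in GREmx1-cre, 1.87 to 2.32 in MREmx1-cre and 1.86 to 1.91 in GRMREmx1-cre. Calb1 fell to 38.2% of dflox in MREmx1-cre (-1.39 ± 0.109; limma adjusted p = 3.94e-05) and to 34.6% in GRMREmx1-cre (-1.53 ± 0.118; adjusted p = 1.35e-05), without overlap.

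Of 13 genes of store release and refill, 2 fell in MREmx1-cre (2.6% of all genes lower). In GRMREmx1-cre 1 rose and 3 fell (11.4% of all genes higher and 4.84% lower). Orai2, a store-operated channel subunit, was at 2.05 to 2.44 in dflox, 1.67 to 1.82 in MREmx1-cre and 1.59 to 1.71 in GRMREmx1-cre. It fell by 0.57 ± 0.0748 (limma adjusted p = 0.00091) and 0.66 ± 0.0808 (adjusted p = 0.000238). Ryr2, the ryanodine receptor that amplifies entering calcium, fell by 0.39 ± 0.0874 in GRMREmx1-cre (adjusted p = 0.00934) and differed by -0.30 in MREmx1-cre (adjusted p = 0.0423). In GRMREmx1-cre the inositol trisphosphate receptor gene Itpr3 rose by 0.19 (adjusted p = 0.0222; -0.11 with normexp), and Stim2, a sensor of store filling, fell by 0.24 (adjusted p = 0.0413), with overlapping groups. The last 3 of these calls did not hold under several alternatives. With median scaling Ryr2 in MREmx1-cre gave -0.32 (adjusted p = 0.0561) and Itpr3 gave 0.11 (adjusted p = 0.189), and without GRMREmx1-cre replicate 3 Stim2 gave -0.16 (adjusted p = 0.174). Of 9 extrusion genes, 1 fell in MREmx1-cre and 3 fell in GRMREmx1-cre, beside 2.6% and 4.84% of all genes. In GRMREmx1-cre the calcium pump gene Atp2b3 gave -0.44 ± 0.0808 (adjusted p = 0.00295) and the exchanger genes Slc24a2 and Slc24a3 -0.40 ± 0.06 (adjusted p = 0.000939) and -0.24 (adjusted p = 0.0223). The Slc24a3 call was lost with quantile normalization (-0.20, adjusted p = 0.0853). It was also lost without dflox replicate 1 or 4 or any 1 of the GRMREmx1-cre arrays (-0.25 to -0.20). Slc24a2 was the one that fell in MREmx1-cre (-0.24, adjusted p = 0.021), a call that went when MREmx1-cre replicate 2 or any dflox array but the third was left out (-0.24 to -0.22). Its second probe gave -0.05 there, and the mean of both -0.14 (adjusted p = 0.363). With normexp the call was lost too (-0.26).

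Of 5 calcium-activated potassium channel genes, Kcnn2, whose SK2 channel opens on calcium from these pores and contributes to the afterhyperpolarisation, fell in both groups without MR. It was at 2.74 to 3.02 in dflox, 2.44 to 2.72 in MREmx1-cre and 2.20 to 2.44 in GRMREmx1-cre, all below dflox. The differences were -0.29 ± 0.0743 (limma adjusted p = 0.0333) and -0.56 ± 0.0803 (adjusted p = 0.000667), the latter 67.9% of dflox, and a second Kcnn2 probe gave -0.35 and -0.68 and passed in both. With the brightest probe the MREmx1-cre call was lost when any of dflox replicates 1, 2 and 4 and MREmx1-cre replicates 1, 2 and 3 was left out (-0.31 to -0.24). It was also lost with normexp (-0.30, adjusted p = 0.478).

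Markers of cell types also passed in the groups without MR. Over all genes, 4.21% were called higher and 2.6% lower in MREmx1-cre, and 11.4% higher and 4.84% lower in GRMREmx1-cre. In GREmx1-cre, where none of the pathway genes passed, 1 of 5 tested CA3 markers and 1 of 5 astrocyte markers rose (3.15% of all genes called). Of 5 markers of CA2 pyramidal cells, 3 fell in MREmx1-cre and in GRMREmx1-cre, and their summed level was 45.4 to 48 in dflox, 31.9 to 36.6 in MREmx1-cre and 31.3 to 36.6 in GRMREmx1-cre. Of 5 astrocyte markers 1 rose in MREmx1-cre and 3 in GRMREmx1-cre, where the sums were 43.2 to 50.3 beside 35.9 to 39.8 in dflox. Of 5 microglial markers 2 rose in each group without MR (11.3 to 12.6 and 11.6 to 14.1 beside 9.61 to 10.4). Of 5 tested CA1 markers, 1 rose and 1 fell in MREmx1-cre and 1 rose and 2 fell in GRMREmx1-cre, where their log2 differences ran from -3.61 to 0.54. Of 5 tested CA3 markers, 2 fell in each of these groups. Neocortical markers summed to 5.17 to 6.4 in MREmx1-cre and 5.7 to 6.16 in GRMREmx1-cre, above the 4.53 to 4.92 of dflox, with 1 of 6 higher in each. Of 5 striatal markers, 1 rose in MREmx1-cre and 2 in GRMREmx1-cre, where the sums were 2.82 to 3.11 beside 2.14 to 2.62 in dflox. None of 5 oligodendrocyte markers passed in any knockout against dflox (0 at an unadjusted p below 0.05 in limma). None of 9 interneuron markers passed in any knockout against dflox (2 in each at an unadjusted p below 0.05 in limma). The tested markers of these lists were detected in every group, and the part of these cells in the channel and pathway differences was not tested.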

How the data were processed

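Total RNA of 15 hippocampus samples, labelled with Cy3, was hybridised to 1-colour Agilent mouse arrays. Per the submitters' processing notes, spots were read with Agilent Feature Extraction 12.0. The deposited processed signal is an intensity in arbitrary units, corrected for background by the scanner software per the file headers, and the deposited flags are other values (0 or 1) for outlier spots and spots well above background. The value table that the authors deposited held the same intensity at 45018 of 45018 spots.

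The members, the pathway and marker lists and the tests were chosen with earlier results of these data known. Groups were taken from the sample titles. Flagged outlier spots (1281 in all) were dropped, intensities were put on the log2 scale, each array's 75th percentile over 43379 non-control spots was subtracted, and the spots of a probe were averaged. A level near 0 therefore equals that percentile, and levels of different probes are not compared. Probes were named through the RefSeq table of GRCm38.p6 (28223 of 41174 had 1 symbol, 12951 none). A probe was tested if well above background, on at least 50% of its spots, on at least 3 arrays. Each gene was represented by its brightest tested probe (22864 genes).

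Differences were tested with limma 3.58.1 in R 4.3.3 (lmFit and eBayes, 4 group means, Benjamini-Hochberg at 0.05), and the scripts were tested on simulated data. All probes (30873) were fitted separately. Marker sums add linear levels relative to the percentile. No member probe was saturated. The number of arrays limits the precision. Named were the 8 members, both receptor genes, up to 4 genes of each pathway list with the smallest adjusted p among those that passed against dflox, and the 3 genes most like each member that passed against dflox. The alternatives were other scalings, normexp background correction (on median signals, since the files hold no mean signal), filters and all probes of a gene averaged. Further ones were the compared groups alone, a replicate block and each array left out. Added after seeing the data was a fit with GREmx1-cre replicate 1 and MREmx1-cre replicate 2 (apart for thalamic and choroid plexus markers) both left out. That fit kept dflox replicate 3, MREmx1-cre replicate 1 and GRMREmx1-cre replicate 3, which also stood apart for thalamic markers.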

Additional observations from a re-analysis of the deposited data

Results flagged for a closer look

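Cacna1g in GREmx1-cre replicate 3 was at 0.89 (log2 level), while the other 3 arrays of that group lay at 0.64 to 0.66. Cacna1i in GREmx1-cre replicate 4 was at -5.91, while the others lay at -6.31 to -6.25. These were 2 arrays far from the rest of their group among 78 groups of 4 examined (24 of members and 54 of pathway genes), and chance alone gives about 1 in 20.

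The Cacna1d probe that was too dim to be tested was well above background on 2 arrays, at -4.74 in MREmx1-cre replicate 2 and -6.19 in MREmx1-cre replicate 4. It was at -7.14 and -7.50 on the other arrays of that group, and between -8.64 and -6.76 on the remaining arrays, dflox included, without being well above background there.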

How the results depend on the processing

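Of 1392 differences of the 8 genes recomputed under alternatives, 1344 kept their side of the threshold with either the same sign or no call in both, 24 lost the call, 20 gained it and 4 reversed, and 60 had the other sign. All 56 calls or absences of calls were kept with quantile normalization and with median scaling. Normexp moved the median of all genes in GRMREmx1-cre against dflox from 0.03 to 0.42 and called 61.8% of genes there, and the cause was not tested. With it, Cacna1c reversed to 0.65 against dflox and 0.63 against GREmx1-cre in GRMREmx1-cre, and Cacna1e to 1.76 against dflox and 1.71 against MREmx1-cre. Normexp gave 0 member calls for MREmx1-cre against dflox (0.459% of all genes called) and 1 for MREmx1-cre against GREmx1-cre (0.757%). It gave 5 for GRMREmx1-cre against each other group (61.8% of all genes against dflox, 61.6% against GREmx1-cre and 59.8% against MREmx1-cre).

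For MREmx1-cre against dflox (2 calls), 1 remained without the filter on dim probes, with the mean of probes, with the compared groups alone, and with GREmx1-cre replicate 1 and MREmx1-cre replicate 2 both left out. For GRMREmx1-cre, the compared groups alone gave 0 calls against dflox, and the mean of probes 1 against GREmx1-cre. Without both of these arrays, MREmx1-cre against GREmx1-cre gave 1. Leaving out 1 array at a time gave 0 to 0 calls for GREmx1-cre against dflox, 0 to 2 for MREmx1-cre and for GRMREmx1-cre against dflox, 2 to 3 for GRMREmx1-cre against GREmx1-cre, 0 to 1 against MREmx1-cre and for the interaction, and 2 to 2 for MREmx1-cre against GREmx1-cre.

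The samples share only a replicate number, which is the slide position on 15 of 15 arrays (deviations of same-numbered arrays correlated at -0.0292 to 0.196, above 0.1 in 6 of 21 pairs, and 14 of 15 arrays correlated best with their own number). With the replicate block, GRMREmx1-cre gave 2 calls against dflox (Cacna1g added, 0.27, adjusted p = 0.0261), 1 against MREmx1-cre (Cacna1d, 0.24, adjusted p = 0.0489), and the interaction 1 (Cacna1d, 0.37, adjusted p = 0.047). Differences in Cacna1i are limited by signal close to background.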
